A study of Mus musculus with 10 samples.

Results

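Solute carriers were compared between B16-F1ΔFOXC2 melanoma cells, in which the forkhead transcription factor FOXC2 is labelled as deleted, and wild-type B16-F1 cells. Members were the genes whose symbol starts with Slc and a digit. The rule set aside 2 of the 177 such symbols by name (Slc45a2 and Slc24a5) and 6 by position in 3 skipped stretches of chromosomes 1, 2 and 8, which left 169 members among the 10735 genes of the table. Slc35c2, Slc12a5, Slc39a10, Slc40a1, Slc9a8 and Slc7a5 were the 6 skipped and were not analysed here. Of the 169 members, 168 had a mean of at least 0.5 FPKM (fragments scaled by transcript length and by the fragments mapped in the library) over the 10 libraries and were tested. Slc44a3, a choline transporter-like protein, fell under that filter, at 0.302 ± 0.0521 FPKM in ΔFOXC2 cells and 0.599 ± 0.0816 FPKM in the wild type (SD, n = 5 each).

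B16-F1 is a pigmented melanoma line from the C57Bl/6 mouse strain. The 5 ΔFOXC2 libraries and the 5 wild-type libraries came from cultures at passages 5 to 10, seeded alike in RPMI-1640 with 10% serum and harvested near 90% confluence, 24 h later. No further agent is labelled for either group. How the deletion was made, and whether the ΔFOXC2 line is 1 clone or a pool, is not in the labels. Nothing in the labels ties a replicate number to a separate thaw or day, so the p-values measure the spread between these libraries. Foxc2 was not analysed here, so the genotype stands as labelled. FPKM summed to 241882 to 246064 in ΔFOXC2 libraries and 240441 to 251273 in wild-type libraries, and the number of reads behind each value is unknown. Melanocyte lineage markers were abundant in both groups: 12 of the 13 listed were analysed, and their summed level was 4538 to 5007 FPKM in ΔFOXC2 cells and 3682 to 4230 FPKM in the wild type. Of 20 macrophage markers 2 (Cd68 and Lyz2) were analysed, with a sum of 2.53 to 4.59 FPKM in ΔFOXC2 cells and 0.757 to 1.40 FPKM in the wild type. Of 10 fibroblast and 10 endothelial markers 2 each were analysed, with sums of 0.801 to 1.23 and 2.94 to 4.87 FPKM in ΔFOXC2 cells against 1.39 to 1.53 and 1.44 to 2.29 FPKM in the wild type, and of 8 keratinocyte markers 0 were analysed.

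Solute carriers are membrane proteins that move small molecules without splitting ATP themselves, either down a gradient or coupled to the flow of an ion. Those at the cell surface bring in amino acids, sugars, vitamins and metals and export lactate, while others serve the mitochondrion, the lysosome, the melanosome and the Golgi. In melanoma the family is known for feeding growth with glutamine, cystine and glucose and for setting the ion balance of the melanosome. Members were grouped by the substrate of their family into amino acid and peptide, sugar, metal ion, mitochondrial Slc25 and organic ion carriers. Inorganic ion carriers, carriers with no assigned substrate and genes that share the symbol without being carriers formed further groups.

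ΔFOXC2 cells had less of 4 plasma membrane amino acid carriers, of the abundant mitochondrial ATP/ADP exchanger Slc25a4 and of the sodium bicarbonate cotransporter Slc4a4. They had more of the anion carrier Slc26a7, the calcium exchanger Slc24a4, the creatine carrier Slc6a8 and the thiamine carrier Slc19a2. Calls required both a fold of 1.5 or more and a limma p of 0.05 or less after Benjamini-Hochberg adjustment over all 10570 tested genes, and the words rose and fell are kept for called genes. By that rule 20 of the 168 tested members (11.9%) were called, beside 8.62% of all tested genes. The 11 that rose stand beside a background of 4.97%, and the 9 that fell beside 3.65%. Dropping the fold threshold, 47 members were higher and 35 lower by the adjusted p, where 41.6% of all genes passed (20.7% higher and 20.8% lower). The unadjusted p alone was passed by 101 members, where 49.4% of all genes passed it, and together with 1.5-fold by 22 members, where 8.82% of all genes did. The values of the 5 ΔFOXC2 libraries did not overlap those of the 5 wild-type libraries for 49 members (29.2%), beside 30.0% of all genes. Of these, 32 lay above the wild type and 17 below it, where the background is 15.1% and 14.9%. The median log2 difference, ΔFOXC2 minus wild type on the log2(FPKM + 0.1) scale, was 0.10 over the members and -0.01 over all genes, and the median absolute difference was 0.23 over the members and 0.17 over all genes. In bulk RNA, fewer cells that use a carrier and less of its RNA per cell cannot be told apart. Of the 12 tested melanocyte markers 4 rose (Gpnmb, Rab27a, Trpm1 and Tyr), beside 4.97% of all genes. Without the fold threshold 11 were higher and 0 lower, beside 20.7% and 20.8% of all genes, and all 12 differences were positive. Both analysed macrophage markers and the endothelial marker Egfl7 rose too. Ptprc and Csf1r, which define blood cells and macrophages, were among the markers not analysed here. The part of these markers in the differences of the carriers was not tested.

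**Figure D1:**
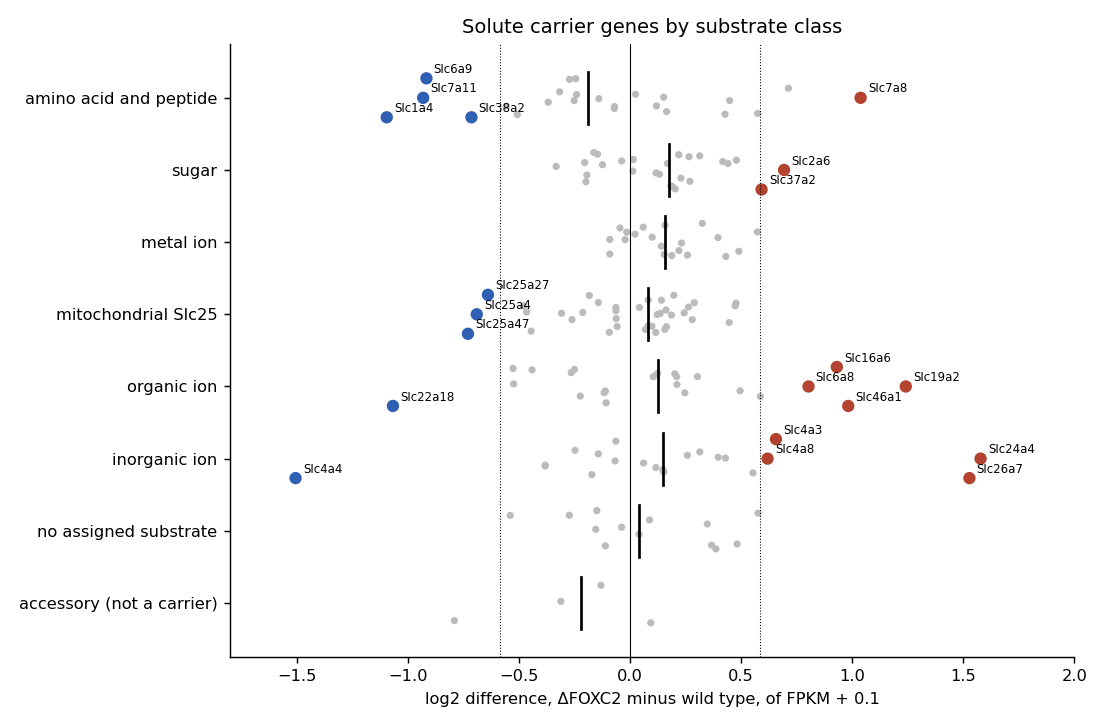
Log2 difference in FPKM + 0.1, ΔFOXC2 minus wild type, of each of the 168 tested members by substrate class (rows). Coloured points are the 20 called members, red above and blue below 0, grey points are not called, black bars are class medians and dotted lines mark 1.5-fold. The called amino acid carriers lie to the left apart from Slc7a8, and 8 of the 10 called organic and inorganic ion carriers lie to the right.

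Amino acid carriers that passed were mostly lower in ΔFOXC2 cells. Of 24 tested, 4 fell (Slc1a4, Slc7a11, Slc6a9 and Slc38a2) and 1 rose (Slc7a8), and by the adjusted p alone 9 were lower and 4 higher. Among all tested genes 3.65% fell and 4.97% rose, and by the adjusted p alone 20.8% were lower and 20.7% higher. The median log2 difference of the class was -0.19. Several genes of this class are textbook targets of the amino acid response, in which ATF4 binds a composite site next to the start of genes for amino acid uptake and synthesis. The letters TGATGNAA were searched on both strands of the RefSeq promoters (GRCm38.p6, from 250 bases before to 50 after the start site), which matched 131 of the 168 tested members. They stood in 3 of 20 amino acid carriers and in 5 of 131 members (3.82%), against 167 of 8338 tested genes (2.00%). Of these 3 carriers Slc7a11 and Slc1a4 fell, while Slc7a7 was not called (log2 0.12, limma adjusted p = 0.414). The promoter of Slc38a2, which fell too, held no such match. The 3 promoters are printed up to the start site, or to the end of a motif that crosses it, to show where the letters stand. Lower case is the promoter and capitals mark the TGATGNAA matches, read on either strand, and in Slc7a11 also 1 match to TGTTTAC, letters of a forkhead site.
Slc7a11 chr3:50443614-50443863 minus strand: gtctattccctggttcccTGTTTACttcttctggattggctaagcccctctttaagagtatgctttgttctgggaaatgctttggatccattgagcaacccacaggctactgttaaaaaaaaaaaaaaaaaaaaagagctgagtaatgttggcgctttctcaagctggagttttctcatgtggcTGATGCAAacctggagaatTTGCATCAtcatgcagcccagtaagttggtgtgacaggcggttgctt
Slc1a4 chr11:20332710-20332963 minus strand: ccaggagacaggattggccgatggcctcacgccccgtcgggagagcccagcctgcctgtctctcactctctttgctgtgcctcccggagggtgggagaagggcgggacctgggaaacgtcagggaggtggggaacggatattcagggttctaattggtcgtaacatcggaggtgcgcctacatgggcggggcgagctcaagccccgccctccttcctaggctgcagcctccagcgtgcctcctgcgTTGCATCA
Slc7a7 chr14:54417703-54417952 minus strand: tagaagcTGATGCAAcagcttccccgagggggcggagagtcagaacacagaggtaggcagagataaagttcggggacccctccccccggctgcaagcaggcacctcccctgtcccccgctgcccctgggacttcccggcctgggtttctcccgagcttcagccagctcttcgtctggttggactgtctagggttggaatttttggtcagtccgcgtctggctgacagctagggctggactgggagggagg
In Slc7a11 the 2 matches lay at -66 to -59 and, on the other strand, at -47 to -40. The Slc1a4 match lay on the other strand across the start site, at -4 to 4, and the Slc7a7 match at -243 to -236. TGTTTAC, searched alike, stood in 1 of 131 members (Slc7a11, at -232 to -226) and in 2.37% of all tested genes. A match describes letters in this window and says nothing of binding.

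Slc38a2, which carries small neutral amino acids together with sodium, was the most abundant carrier that fell apart from mitochondrial Slc25a4 (ENSMUSG00000022462.6, chromosome 15, 96687394 to 96699698, GRCm38). It had 39.4, 57.3, 70.0, 47.2 and 46.1 FPKM in ΔFOXC2 replicates 1 to 5, against 71.2, 86.6, 90.0, 79.5 and 92.5 FPKM in wild-type replicates 1 to 5. Every ΔFOXC2 library lay below every wild-type library, although ΔFOXC2 replicate 3 came close to the lowest wild-type one. The log2 difference was -0.71 (SE 0.136, limma adjusted p = 0.00153).

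Slc1a4, an exchanger of alanine, serine and cysteine (ENSMUSG00000020142.12, chromosome 11, 20302180 to 20332713), had 2.95, 6.01, 9.31, 5.23 and 3.01 FPKM in ΔFOXC2 libraries and 7.32, 9.63, 10.5, 10.8 and 15.4 FPKM in wild-type libraries. The groups overlapped, because ΔFOXC2 replicate 3 exceeded wild-type replicate 1. The log2 difference was -1.09 (SE 0.299, limma adjusted p = 0.0125). Slc7a11, the cystine and glutamate exchanger that supplies cysteine for glutathione (ENSMUSG00000027737.10, chromosome 3, 49892526 to 50443614), had 2.00, 3.14, 3.92, 2.43 and 1.81 FPKM in ΔFOXC2 cells against 2.56, 5.23, 5.27, 4.81 and 8.77 FPKM in the wild type. Wild-type replicate 1 fell among the ΔFOXC2 values here, and replicate 5 stood highest. The log2 difference of -0.93 (SE 0.290, limma adjusted p = 0.0237) lost its call without ΔFOXC2 replicate 1 (adjusted p = 0.0558) or replicate 5 (adjusted p = 0.0577). Slc6a9, the glycine carrier also known as GLYT1, had 1.13, 1.42, 2.26, 1.49 and 1.19 FPKM in ΔFOXC2 libraries and 2.11, 2.83, 3.12, 2.14 and 4.56 FPKM in wild-type libraries, again with ΔFOXC2 replicate 3 inside the wild-type range (log2 -0.92, SE 0.225, limma adjusted p = 0.00705). Its exons share 1429 bases with Ccdc24 and 46 with B4galt2 on the other strand in the GENCODE annotation. B4galt2 itself was lower in ΔFOXC2 cells (log2 -1.09), and reads of such partners cannot be told apart where the counting ignores strand, a setting not given in the sources used here.

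The amino acid carrier that rose was Slc7a8, which exchanges neutral amino acids as the light chain of a pair with Slc3a2 (ENSMUSG00000022180.7, chromosome 14, 54722209 to 54781946). It had 1.64, 1.58, 2.10, 2.39 and 1.83 FPKM in ΔFOXC2 libraries against 0.716, 0.869, 0.824, 0.872 and 1.09 FPKM in wild-type libraries. No value of one group reached the other (log2 1.04, SE 0.136, limma adjusted p = 0.000111). Slc3a2, the heavy chain that brings Slc7a8 and Slc7a11 to the surface, had 54.4 ± 6.98 FPKM in ΔFOXC2 cells and 65.0 ± 10.8 FPKM in the wild type (SD, n = 5 each), and the difference of -0.25 did not pass (limma adjusted p = 0.0968).

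Other abundant or well known amino acid carriers stayed under the fold threshold. Slc6a6, the taurine carrier and the most abundant member of the class, had 79.4 to 90.1 FPKM in ΔFOXC2 libraries and 94.8 to 114 FPKM in wild-type libraries. Its groups did not overlap, at a log2 difference of -0.32 (limma adjusted p = 0.00112). Slc1a5, a glutamine carrier, had 12.1 ± 0.750 FPKM in ΔFOXC2 cells against 14.3 ± 1.71 FPKM in the wild type (log2 -0.24, limma adjusted p = 0.0317). Slc38a9, a lysosomal carrier that reports arginine to the kinase mTORC1, had 0.817 ± 0.0466 FPKM in ΔFOXC2 cells and 0.727 ± 0.0728 FPKM in the wild type (limma adjusted p = 0.258). Slc36a1, a proton-coupled lysosomal carrier, was near 1 FPKM in a single library of each group, ΔFOXC2 replicate 4 (1.09 FPKM) and wild-type replicate 3 (0.883 FPKM). Its other libraries had 4.67 to 5.67 FPKM in ΔFOXC2 cells and 3.73 to 3.94 FPKM in the wild type, and with all 10 libraries the difference of 0.43 did not pass (limma adjusted p = 0.534). Chosen after its values were seen, the arginine and lysine carrier Slc7a1 had 22.7 ± 4.49 FPKM in ΔFOXC2 cells against 33.3 ± 5.29 FPKM in the wild type (log2 -0.56, limma adjusted p = 0.00753), just under the fold threshold.

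**Figure D2:**
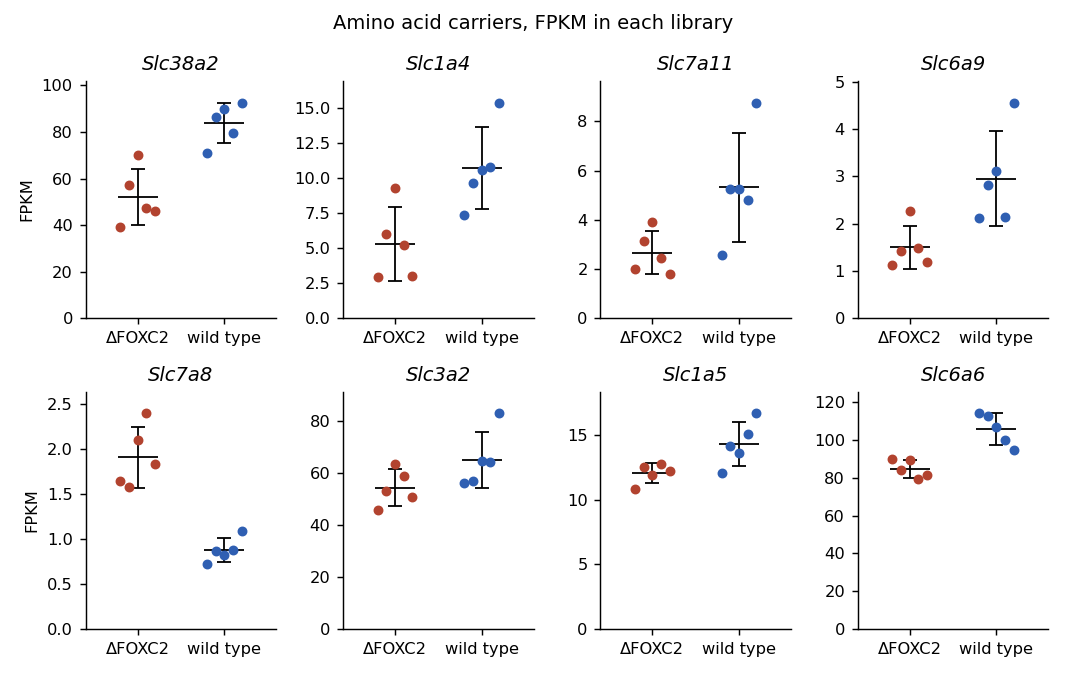
FPKM (vertical axes, starting at 0) of single amino acid carriers in the 5 ΔFOXC2 libraries (left) and the 5 wild-type libraries (right), with group mean and SD. Slc38a2 and Slc6a6 separate the groups with ΔFOXC2 cells below and Slc7a8 with ΔFOXC2 cells above, while Slc1a4, Slc7a11 and Slc6a9 overlap.

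The 4 carriers that fell ordered the libraries alike within each group. ΔFOXC2 replicate 3 was the highest ΔFOXC2 library for all 4, and replicate 1 was the lowest for 3 and replicate 5 for 1. Wild-type replicate 5 was the highest and replicate 1 the lowest for all 4. Over all 168 tested members ΔFOXC2 replicate 3 was highest in its group for 25.0% and wild-type replicate 5 for 27.4%, and ΔFOXC2 replicate 1 was lowest for 23.2% and wild-type replicate 1 for 31.0%. A list of 21 amino acid response genes, of which 17 were tested, showed the same order. ΔFOXC2 replicate 3 was the highest ΔFOXC2 library for 14 of the 17 and replicate 1 the lowest for 13, and wild-type replicate 5 was highest and replicate 1 lowest for 15 each. Their summed level was 410.3, 599, 801, 549.6 and 439.6 FPKM in ΔFOXC2 replicates 1 to 5 and 717, 808, 854, 810.4 and 1100.2 FPKM in wild-type replicates 1 to 5. The sum of ΔFOXC2 replicate 3 thus lay above that of wild-type replicate 1.

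Of these 17 genes 9 fell and 0 rose, against 3.65% and 4.97% of all genes, and 17 of 17 had a negative difference, with a median of -0.71. Without the fold threshold 11 were lower, the same number as by the unadjusted p. The list was chosen with earlier results of these data known. Its genes order the libraries much alike, so they are not 17 separate observations. Asns, asparagine synthetase, had 38.0 ± 12.3 FPKM in ΔFOXC2 cells and 65.5 ± 9.39 FPKM in the wild type (log2 -0.83, limma adjusted p = 0.0036). Phgdh, which opens serine synthesis, had 66.8 ± 11.8 FPKM in ΔFOXC2 cells against 108 ± 9.37 FPKM in the wild type without overlap (log2 -0.71, limma adjusted p = 0.000257). Atf4, the transcription factor of the response, had 159 ± 47.9 FPKM in ΔFOXC2 cells against 231 ± 33.9 FPKM in the wild type (log2 -0.58), just under the fold threshold (limma adjusted p = 0.0226). TGATGNAA stood in 4 of the 17 promoters (Asns, Chac1, Nupr1 and Pycr1). The part of this shared order of the libraries in the difference between the groups was not tested. On a list of 22 tested genes of amino acid sensing at the lysosome, 1 rose (Rragd) and 1 fell (Rragb). Rragd had 13.1 ± 0.980 FPKM in ΔFOXC2 cells and 7.65 ± 2.95 FPKM in the wild type. Rragb had 0.00946 ± 0.0212 FPKM in ΔFOXC2 cells against 1.21 ± 0.238 FPKM in the wild type (log2 -3.59, limma adjusted p = 1.16e-07). Its value was 0.0473 FPKM in ΔFOXC2 replicate 1 and 0 in ΔFOXC2 replicates 2 to 5. Both encode RAG GTPases, which hold mTORC1 at the lysosome. The share of the list that was called, 9.09%, was near the 8.62% of all genes, and the list's median was 0.03.

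**Figure D3:**
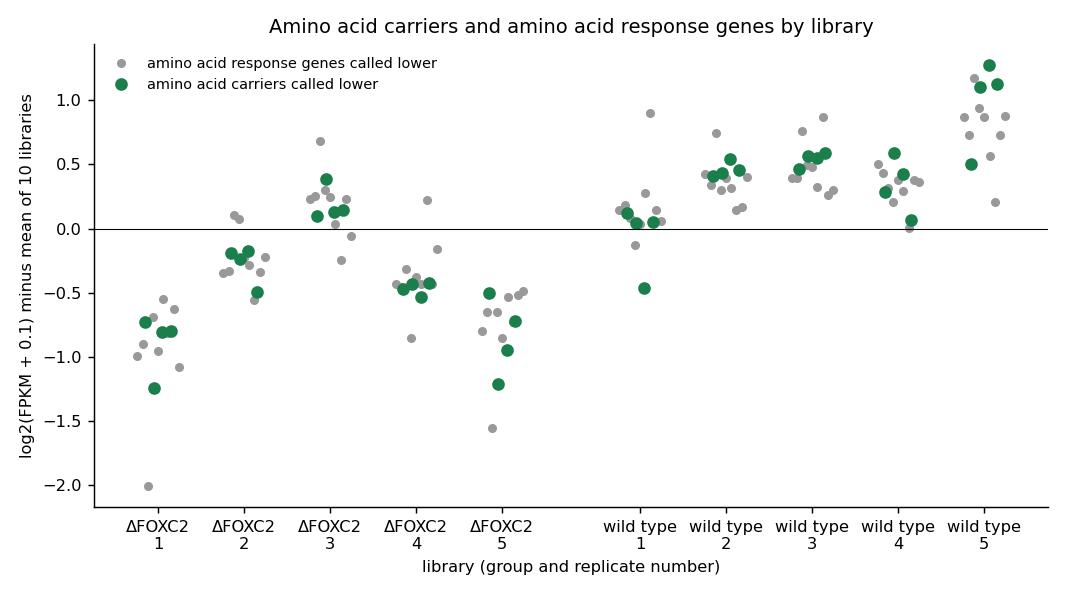
Log2(FPKM + 0.1) minus the gene's mean over all 10 libraries (vertical axis), for the 4 amino acid carriers that fell (green) and the 9 amino acid response genes that fell (grey), in each ΔFOXC2 library (left) and each wild-type library (right). ΔFOXC2 replicate 3 and wild-type replicate 5 are each the highest of their group for all 4 carriers and for 8 of the 9 response genes, with Psat1 the exception in both groups.

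Of 26 tested sugar and nucleotide sugar carriers, 2 rose (Slc2a6 and Slc37a2) and 0 fell by limma, a share of 7.69% near the 8.62% of all genes, and without the fold threshold 7 were higher and 3 lower (median 0.18). Before adjustment 14 had a p of 0.05 or less, where 49.4% of all genes did, and 0 of them fell by 1.5-fold. The median absolute difference was 0.20 in this class and 0.17 over all genes. Slc2a6, a glucose carrier of the GLUT family found on internal membranes, had 4.08, 3.19, 4.65, 3.05 and 3.09 FPKM in ΔFOXC2 libraries and 2.35, 2.16, 2.26, 2.15 and 1.92 FPKM in wild-type libraries. All ΔFOXC2 values were above all wild-type values (log2 0.69, SE 0.120, limma adjusted p = 0.00081). Slc37a2, a sugar phosphate exchanger of the endoplasmic reticulum, had 3.26, 2.89, 3.05, 2.23 and 3.29 FPKM in ΔFOXC2 cells against 1.61, 2.30, 1.82, 2.04 and 1.79 FPKM in the wild type, where ΔFOXC2 replicate 4 fell inside the wild-type range. Its difference of 0.59 (SE 0.122, limma adjusted p = 0.00252) was at the fold threshold, and it dropped to 0.54 to 0.58, under the threshold, when ΔFOXC2 replicate 1, 3 or 5 or wild-type replicate 1, 3 or 5 was left out. With a pseudocount of 1 both genes fell short of 1.5-fold, at 0.53 for Slc2a6 and 0.43 for Slc37a2.

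The glucose carriers best known from tumours were not called. Slc2a1 (GLUT1) had 10.4 ± 0.898 FPKM in ΔFOXC2 cells and 11.6 ± 1.44 FPKM in the wild type (log2 -0.15, limma adjusted p = 0.218). Slc2a3 (GLUT3) had 1.74 to 1.95 FPKM in ΔFOXC2 libraries and 2.04 to 2.56 FPKM in wild-type libraries, a difference without overlap but small (log2 -0.33, limma adjusted p = 0.00676). The most abundant of the class were Slc35b1, an ATP carrier of the endoplasmic reticulum that its family places here, at 29.9 ± 1.78 FPKM in ΔFOXC2 cells and 32.6 ± 1.49 FPKM in the wild type, and Slc35b2, which brings the sulfate donor PAPS into the Golgi, at 18.2 ± 1.01 FPKM in ΔFOXC2 cells and 15.5 ± 0.982 FPKM in the wild type. Slc35b2 was higher in ΔFOXC2 cells at a log2 difference of 0.23 (limma adjusted p = 0.00599), with overlapping groups.

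Metal ion carriers differed by small amounts, mostly upward. None of the 20 tested was called by limma, and 0 were called with the unadjusted p and the fold threshold. Without the fold threshold 7 were higher and 0 lower by the adjusted p and 8 passed by the unadjusted p, where the shares of all genes are 20.7%, 20.8% and 49.4%. The median was 0.16. Slc39a14, an importer of zinc and of iron not bound to transferrin, had 4.75, 5.32, 5.13, 4.71 and 4.80 FPKM in ΔFOXC2 libraries against 2.94, 3.01, 3.38, 3.41 and 3.77 FPKM in wild-type libraries. The groups were well apart, and the log2 difference of 0.57 (SE 0.0755, limma adjusted p = 0.000115) was just under 1.5-fold. It reached 1.5-fold with a pseudocount of 0.01 and when ΔFOXC2 replicate 1 or 4 or wild-type replicate 4 or 5 was left out. Slc30a1, the zinc exporter of the plasma membrane, had 3.43 ± 0.463 FPKM in ΔFOXC2 cells and 2.52 ± 0.368 FPKM in the wild type (log2 0.43, limma adjusted p = 0.0132), with overlap. When each chromosome was centred on its own median, this gene of chromosome 1 stood at 0.17 and did not pass (limma adjusted p = 0.289). Slc11a2, which moves ferrous iron with protons, had 5.66 to 6.53 FPKM in ΔFOXC2 libraries and 4.80 to 5.48 FPKM in wild-type libraries (log2 0.23, limma adjusted p = 0.00976). Slc31a1, the high-affinity copper importer, had 28.03 to 28.9 FPKM in ΔFOXC2 libraries and 25.1 to 26.0 FPKM in wild-type libraries, a narrow gap without overlap (log2 0.14, limma adjusted p = 0.00265). The most abundant of the class, the haem carrier Slc48a1, had 51.2 ± 3.35 FPKM in ΔFOXC2 cells and 47.7 ± 1.96 FPKM in the wild type and did not pass (limma adjusted p = 0.126). The zinc importers Slc39a6 (log2 0.16, limma adjusted p = 0.0331) and Slc39a1 (log2 0.15, limma adjusted p = 0.00915) were higher by little, and the zinc carrier Slc30a4 had 5.13 ± 0.428 FPKM in ΔFOXC2 cells against 5.05 ± 0.491 FPKM in the wild type (limma adjusted p = 0.843).

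The most abundant solute carrier of these cells, a mitochondrial one, fell in ΔFOXC2 cells. Slc25a4, the exchanger of ADP for ATP in the inner membrane known as ANT1 (ENSMUSG00000031633.4, chromosome 8, 46206797 to 46211284), had 219.7, 192, 191, 214 and 214 FPKM in ΔFOXC2 libraries, against 357, 317, 327, 328 and 332 FPKM in wild-type libraries. The lowest wild-type library exceeded the highest ΔFOXC2 library by far, and the log2 difference was -0.69 (SE 0.0485, limma adjusted p = 1.095e-06). Its close relative Slc25a5 (ANT2), on chromosome X, had 190.4, 181, 173, 189 and 177 FPKM in ΔFOXC2 cells against 249, 224, 212, 223 and 218 FPKM in the wild type. These groups were also apart, at a smaller difference of -0.31 (limma adjusted p = 0.000266). The ratio of Slc25a4 to Slc25a5 was 1.13 ± 0.0560 in ΔFOXC2 cells and 1.48 ± 0.0545 in the wild type (SD, n = 5 each). The sequences of these relatives are alike, so reads may have been shared between them.

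Slc25a4 lies on chromosome 8, where all 11 tested members had negative differences (median -0.27). So did 518 of the 578 tested genes of the chromosome, and the median over all 578 was -0.36. With each chromosome centred on its own median, Slc25a4 stood at -0.33 (limma adjusted p = 0.000372), under 1.5-fold. On chromosome 1 all 6 tested members had positive differences (median 0.41). So did 509 of the chromosome's 573 tested genes, and the median over all 573 was 0.26. Whether a shift of a whole chromosome has a part in these differences was not tested.

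Of the 37 tested Slc25 carriers 3 fell and 0 rose by limma, a share of 8.11% near the 8.62% of all genes. By the unadjusted p alone 24 passed, where 49.4% of all genes did. Without the fold threshold 9 were higher and 8 lower, with a median of 0.08. The other 2 that fell were near 1 FPKM. Slc25a27, an uncoupling protein known from brain, had 0.656 to 0.705 FPKM in ΔFOXC2 libraries and 0.977 to 1.25 FPKM in wild-type libraries (log2 -0.64, SE 0.0962, limma adjusted p = 0.000307). It was under 1.5-fold with chromosomes centred (-0.58) and with a pseudocount of 1 (-0.33). Slc25a47, a carrier known from liver, had 0.618, 0.489, 0.875, 0.461 and 0.539 FPKM in ΔFOXC2 cells against 1.01, 1.15, 0.611, 1.38 and 1.16 FPKM in the wild type, with wild-type replicate 3 below ΔFOXC2 replicates 1 and 3 (log2 -0.73, SE 0.211, limma adjusted p = 0.0169). With a pseudocount of 1 it was at -0.36, and with the replicate number as a block it was not called (limma adjusted p = 0.0606). Slc25a37, the iron importer mitoferrin, had 4.93 ± 0.429 FPKM in ΔFOXC2 cells and 4.53 ± 0.961 FPKM in the wild type and did not pass (limma adjusted p = 0.397).

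The 2 ATP/ADP exchangers made up most of the difference in the family's summed level. All members together summed to 1896 to 1964 FPKM in ΔFOXC2 libraries and 2101 to 2172 FPKM in wild-type libraries, or 0.774% to 0.805% of all FPKM in ΔFOXC2 libraries against 0.865% to 0.895% in wild-type libraries. Of the mean difference of -203 FPKM, Slc25a4 made up -126, Slc25a5 -43.5, Slc38a2 -32.0 and Slc6a6 -21.0. Without Slc25a4 and Slc25a5 the sums were 1505 to 1574 FPKM in ΔFOXC2 libraries and 1560 to 1618 FPKM in wild-type libraries and overlapped. The other 35 Slc25 carriers summed to 365 ± 7.91 FPKM in ΔFOXC2 cells and 352 ± 6.23 FPKM in the wild type (SD, n = 5 each).

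**Figure D4:**
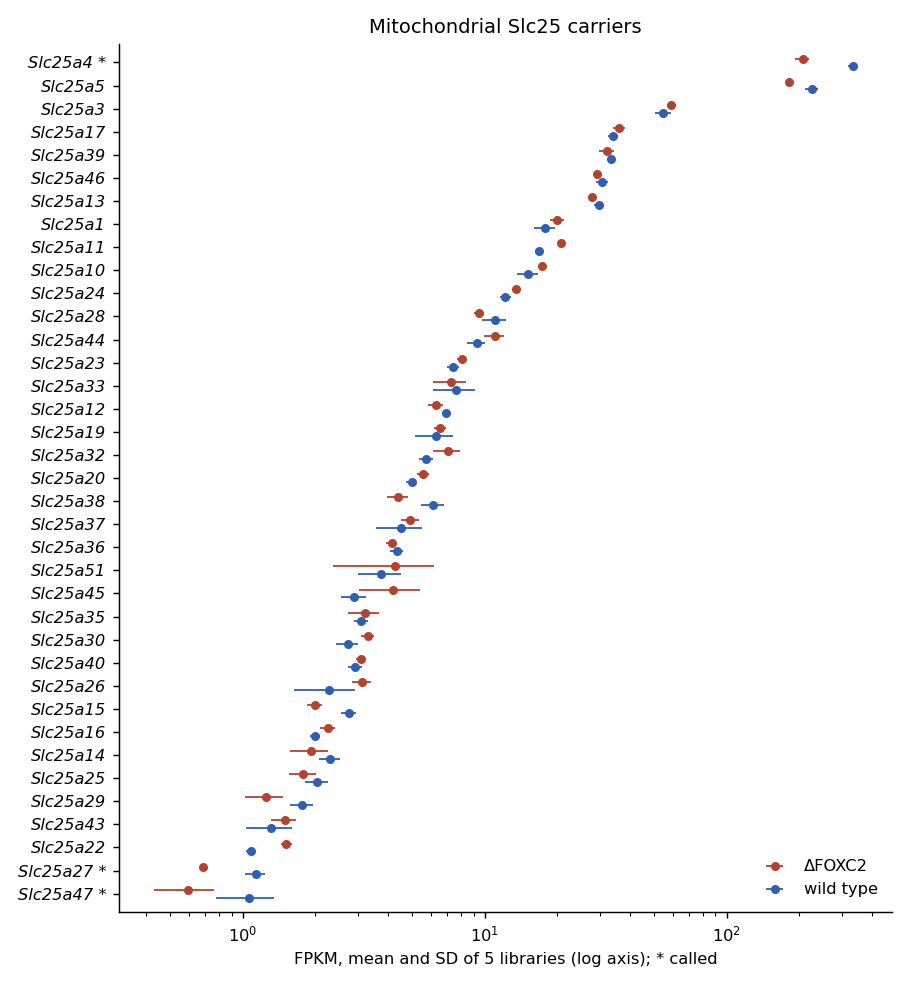
FPKM (horizontal log axis) of the 37 carriers that their Slc25 family places in the mitochondrial class, 1 per row. Points are means and lines are SD of the 5 ΔFOXC2 libraries (red, upper) and the 5 wild-type libraries (blue, lower). Asterisks mark the 3 called carriers, and Slc25a4 and Slc25a5 lie far to the right of the others with ΔFOXC2 cells below the wild type.

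Among the 23 tested organic ion carriers 4 rose (Slc6a8, Slc16a6, Slc46a1 and Slc19a2) and 1 fell (Slc22a18), and by the adjusted p alone 7 were higher and 5 lower (median 0.12). The shares of all genes were 4.97% and 3.65% with the fold threshold and 20.7% and 20.8% without it. Slc6a8, which imports creatine (ENSMUSG00000019558.14, chromosome X, 73673150 to 73682502), had 13.8, 12.8, 13.4, 15.0 and 14.6 FPKM in ΔFOXC2 libraries against 8.65, 7.98, 8.54, 7.70 and 6.85 FPKM in wild-type libraries. The groups were far apart, with little spread in either (log2 0.80, SE 0.0695, limma adjusted p = 5.145e-06). It was the most abundant carrier that rose.

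Slc19a2, a thiamine importer (ENSMUSG00000040918.12, chromosome 1, 164249046 to 164265385), had 6.69, 4.96, 5.56, 4.12 and 3.74 FPKM in ΔFOXC2 libraries and 2.04, 2.32, 2.57, 0.950 and 2.86 FPKM in wild-type libraries. No values overlapped, and wild-type replicate 4 was the lowest by a wide margin (log2 1.24, SE 0.260, limma adjusted p = 0.00275). With chromosomes centred its difference was 0.98 and still called. Slc16a6, a monocarboxylate carrier that exports ketone bodies from zebrafish liver, had 2.85 to 3.74 FPKM in ΔFOXC2 libraries and 1.35 to 2.02 FPKM in wild-type libraries (log2 0.93, SE 0.116, limma adjusted p = 7.708e-05). Its exons share 1052 bases with Amz2 and 48 with Arsg on the other strand, and the partners had differences of -0.06 (Amz2) and 1.37 (Arsg). Slc46a1, the proton-coupled folate carrier, had 0.957 to 1.77 FPKM in ΔFOXC2 libraries against 0.437 to 0.836 FPKM in wild-type libraries (log2 0.98, SE 0.203, limma adjusted p = 0.00256, and 0.50 with a pseudocount of 1). Slc22a18, an organic cation carrier-like gene of an imprinted region, had 0.583, 0.424, 0.437, 0.661 and 0.518 FPKM in ΔFOXC2 cells against 1.09, 1.06, 1.55, 1.17 and 1.16 FPKM in the wild type. All ΔFOXC2 values lay below all wild-type values (log2 -1.07, SE 0.143, limma adjusted p = 0.000135, and -0.53 with a pseudocount of 1).

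The lactate carriers did not pass the test. Slc16a1 (MCT1) had 31.5 ± 2.03 FPKM in ΔFOXC2 cells and 29.2 ± 1.04 FPKM in the wild type (limma adjusted p = 0.105), and Slc16a3 (MCT4) had 1.91 ± 0.855 FPKM in ΔFOXC2 cells against 2.00 ± 0.586 FPKM in the wild type (limma adjusted p = 0.768). Slc29a1, which takes up nucleosides, was lower by a log2 difference of -0.26, at 8.90 ± 1.09 FPKM in ΔFOXC2 cells against 10.7 ± 0.555 FPKM in the wild type (limma adjusted p = 0.0219).

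Of 21 tested inorganic ion carriers 4 rose (Slc24a4, Slc26a7, Slc4a3 and Slc4a8) and 1 fell (Slc4a4), and by the adjusted p alone 9 were higher and 6 lower (median 0.15). Across all genes 4.97% rose and 3.65% fell, and by the adjusted p alone 20.7% were higher and 20.8% lower. Slc24a4, which exchanges sodium for calcium and potassium (ENSMUSG00000041771.13, chromosome 12, 102128733 to 102267091), had 1.74, 1.41, 1.54, 3.14 and 2.47 FPKM in ΔFOXC2 libraries and 0.439, 0.345, 0.476, 0.746 and 1.27 FPKM in wild-type libraries. Values varied widely in both groups without overlap (log2 1.58, SE 0.309, limma adjusted p = 0.00181, and 0.88 with a pseudocount of 1). Slc26a7, an anion carrier of chloride, bicarbonate and iodide (ENSMUSG00000040569.13, chromosome 4, 14502430 to 14621805), had 4.12, 3.54, 3.39, 3.66 and 4.09 FPKM in ΔFOXC2 libraries and 0.922, 1.04, 1.13, 1.42 and 1.85 FPKM in wild-type libraries, far apart (log2 1.53, SE 0.157, limma adjusted p = 1.831e-05).

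Bicarbonate carriers of the Slc4 family moved in both directions. Slc4a4, which carries sodium with bicarbonate (ENSMUSG00000060961.14, chromosome 5, 88886818 to 89239653), had 0.693, 0.615, 0.580, 0.825 and 0.759 FPKM in ΔFOXC2 libraries against 1.87, 2.55, 2.26, 2.08 and 2.00 FPKM in wild-type libraries. The gap between the groups exceeded the range of values within either (log2 -1.50, SE 0.117, limma adjusted p = 2.398e-06, and -0.89 with a pseudocount of 1). Slc4a8, a sodium-driven exchanger of chloride and bicarbonate, had 1.78 to 2.29 FPKM in ΔFOXC2 libraries and 1.13 to 1.67 FPKM in wild-type libraries (log2 0.62, SE 0.119, limma adjusted p = 0.00163). It fell short of 1.5-fold with chromosomes centred (0.56), with a pseudocount of 1 (0.41) and without wild-type replicate 2 or 3 (0.56 each). Slc4a3, an exchanger of chloride for bicarbonate on chromosome 1, had 1.21 to 1.34 FPKM in ΔFOXC2 cells against 0.704 to 0.868 FPKM in the wild type (log2 0.66, SE 0.0912, limma adjusted p = 0.000172), and it was at 0.40 with chromosomes centred and at 0.36 with a pseudocount of 1. Slc4a2, the abundant exchanger of the same kind, had 13.2 to 14.1 FPKM in ΔFOXC2 libraries and 10.2 to 11.8 FPKM in wild-type libraries, without overlap (log2 0.31, limma adjusted p = 0.000393). Of its exons 1141 bases are shared with Fastk on the other strand (log2 0.15). The cation chloride cotransporters Slc12a2, which loads the cell with chloride, and Slc12a7, which exports potassium and chloride, were lower at any fold. Slc12a2 had 2.28 ± 0.339 FPKM in ΔFOXC2 cells and 2.99 ± 0.332 FPKM in the wild type (log2 -0.38, limma adjusted p = 0.0171), and Slc12a7 had 10.6 ± 0.613 FPKM in ΔFOXC2 cells against 12.0 ± 0.809 FPKM in the wild type (log2 -0.17, limma adjusted p = 0.0321).

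**Figure D5:**
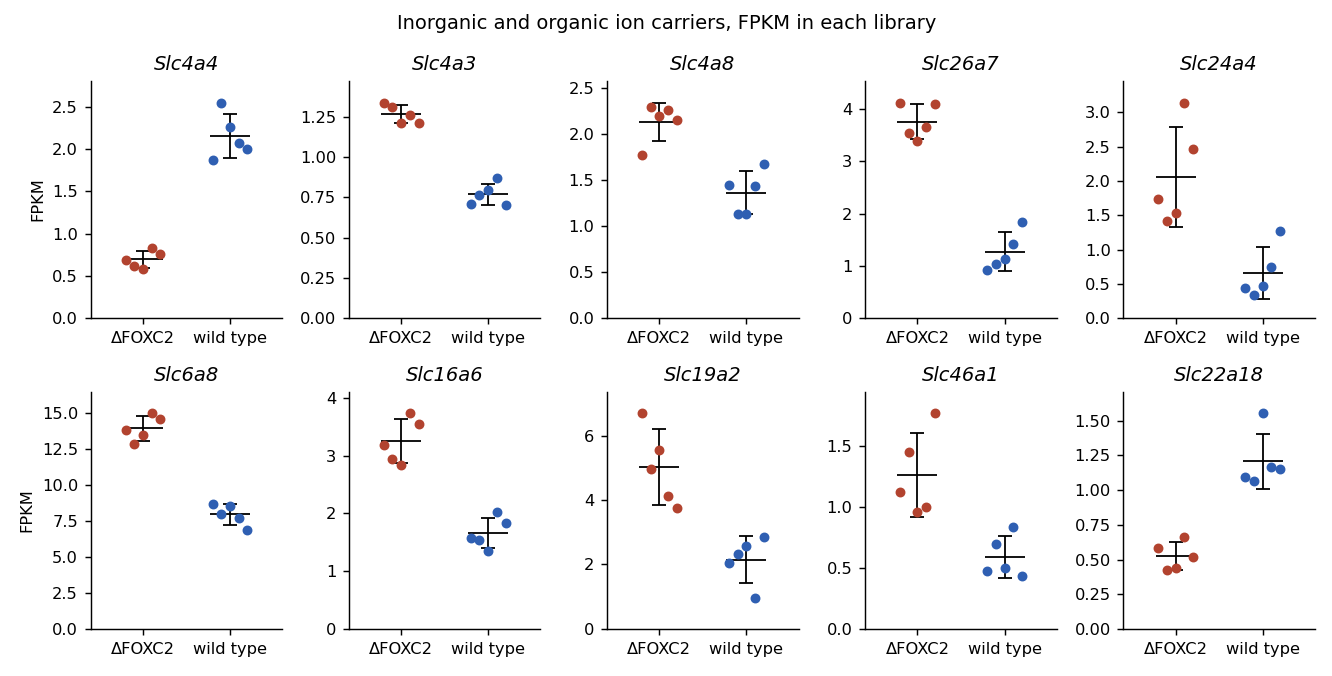
FPKM (vertical axes, starting at 0) of the 10 called inorganic (upper row) and organic (lower row) ion carriers in the 5 ΔFOXC2 libraries (left) and the 5 wild-type libraries (right), with group mean and SD. Slc4a4 separates the groups with ΔFOXC2 cells below, at 0.580 to 0.825 FPKM in ΔFOXC2 cells against 1.87 to 2.55 FPKM in the wild type, and Slc26a7 and Slc24a4 separate them with ΔFOXC2 cells above.

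None of the 13 tested carriers with no assigned substrate was called by limma, with 7 past the unadjusted p alone (49.4% of all genes) and 0 past it and 1.5-fold together. By the adjusted p alone 4 were higher and 2 lower, and the median was 0.04. The most abundant were Slc35e1, at 13.1 ± 0.828 FPKM in ΔFOXC2 cells and 15.8 ± 0.313 FPKM in the wild type (log2 -0.27, limma adjusted p = 0.000816), and Slc35f1, at 9.47 ± 0.849 FPKM in ΔFOXC2 cells against 13.8 ± 0.955 FPKM in the wild type (log2 -0.54, limma adjusted p = 0.000105). Slc35f1 had no overlap between groups and passed 1.5-fold with chromosomes centred (-0.65). Slc35e1 lies on chromosome 8 and turned to 0.09 (limma adjusted p = 0.159) in that fit. Of the 4 genes that carry the symbol without being carriers, 0 were called by limma, 3 passed the unadjusted p alone, and 1 (Slc9a3r2) passed it together with 1.5-fold. The scaffold Slc9a3r1, which ties carriers and channels to the actin skeleton, had 56.8 ± 3.34 FPKM in ΔFOXC2 cells and 53.3 ± 3.90 FPKM in the wild type (limma adjusted p = 0.212). Slc7a6os, the gene opposite Slc7a6 on chromosome 8, had 9.13 ± 0.50 FPKM in ΔFOXC2 cells against 11.4 ± 0.811 FPKM in the wild type (log2 -0.31, limma adjusted p = 0.00171) and turned to 0.05 (limma adjusted p = 0.535) with chromosomes centred.

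Further members that separated the groups below 1.5-fold were chosen after their values were seen. Slc30a7, which loads zinc into the Golgi, had 4.18 ± 0.129 FPKM in ΔFOXC2 cells and 2.95 ± 0.144 FPKM in the wild type (log2 0.49, limma adjusted p = 4.26e-05). Slc36a4, an amino acid carrier, had 5.00 ± 0.368 FPKM in ΔFOXC2 cells against 3.63 ± 0.169 FPKM in the wild type (log2 0.45, limma adjusted p = 0.00021). Among mitochondrial carriers, the oxoglutarate and malate exchanger Slc25a11 had 20.6 ± 0.482 FPKM in ΔFOXC2 cells against 16.9 ± 0.690 FPKM in the wild type (log2 0.29, limma adjusted p = 0.000131). The glycine carrier Slc25a38, needed for haem synthesis, lay the other way, at 4.40 ± 0.447 FPKM in ΔFOXC2 cells and 6.11 ± 0.665 FPKM in the wild type (log2 -0.47, limma adjusted p = 0.00155). Slc17a5, which exports sialic acid from the lysosome, had 5.43 ± 0.445 FPKM in ΔFOXC2 cells against 7.39 ± 0.268 FPKM in the wild type (log2 -0.44, limma adjusted p = 0.000171). Slc27a6, a fatty acid carrier, had 7.45 ± 1.09 FPKM in ΔFOXC2 cells against 10.7 ± 0.721 FPKM in the wild type (log2 -0.53, limma adjusted p = 0.00121). The peptide carrier Slc15a2 had 1.25 ± 0.143 FPKM in ΔFOXC2 cells against 1.81 ± 0.144 FPKM in the wild type (log2 -0.51, limma adjusted p = 0.00137), and the sulfate carrier Slc26a2 had 3.51 ± 0.314 FPKM in ΔFOXC2 cells against 2.58 ± 0.206 FPKM in the wild type (log2 0.43, limma adjusted p = 0.00118). By their choice, in each of these 8 genes the 5 ΔFOXC2 libraries lay on one side of all 5 wild-type libraries. Such separation was seen in 29.2% of the tested members and 30.0% of all tested genes.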

How the data were processed

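RNA of 10 cultures, 5 of B16-F1ΔFOXC2 and 5 of wild-type B16-F1 melanoma cells, was measured by poly(A) sequencing of stranded libraries, read for 150 cycles from both ends, per the labels' protocols. The deposited values are FPKM per gene, which the authors computed. Build GRCm38 and the tools HISAT2, StringTie, cutadapt and FastQC are named, without versions or roles, in the submitters' processing notes. Whether reads were counted by strand is not given in the sources used here.

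Differences, ΔFOXC2 minus wild type, were fitted on log2(FPKM + 0.1) for the 10570 genes that averaged 0.5 FPKM or more, with no covariates. The fit used limma 3.58.1 (R 4.3.3), with eBayes, its trend option and two-sided tests. The pseudocount understates the change of low genes. P-values were adjusted over all of these genes. The script was tested on simulated data. The fold of 1.5 follows the design text, whose own ratio has the wild type on top.

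The members, their grouping by substrate and the gene lists (amino acid response, amino acid sensing at the lysosome, carriers under other symbols, iron, zinc and copper handling, carrier partners and the sodium pump, and cell markers) were chosen with earlier results of these data known. Genes named were every called member, the 2 most abundant members of each class and a list of well known carriers; others are marked as chosen after their values were seen or belong to a list. Gene coordinates are those of the deposited table. Exon overlaps come from the GENCODE annotation of GRCm38 and promoters from RefSeq. Alternatives changed the pseudocount, the filter, the scaling, the variance model, the thresholds, a replicate block, the chromosome medians or left out 1 library at a time.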

Additional observations from a re-analysis of the deposited data

Results flagged for a closer look

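In 7 of the 98 groups of 5 libraries examined (both groups of the 49 named carriers), 1 library stood apart from the other 4 by more of the group's range than Dixon's 95% value allows, where chance marks about 1 group in 20. Slc36a1 was marked in both groups, at 1.09 FPKM in ΔFOXC2 replicate 4, where the others had 4.67 to 5.67 FPKM, and at 0.883 FPKM in wild-type replicate 3, where the others had 3.73 to 3.94 FPKM. Slc4a8 had 1.78 FPKM in ΔFOXC2 replicate 1, below the other 4 at 2.16 to 2.29 FPKM. Slc22a18 had 1.55 FPKM in wild-type replicate 3, above the other 4 at 1.06 to 1.17 FPKM. Slc25a37 had 6.20 FPKM in wild-type replicate 4, above the other 4 at 3.73 to 4.28 FPKM. Slc31a1 had 25.1 FPKM in wild-type replicate 2, a little below the other 4 at 25.8 to 26.0 FPKM. Slc7a6os had 9.95 FPKM in wild-type replicate 2, below the other 4 at 11.5 to 12.0 FPKM. Without the library named, Slc4a8 had a log2 difference of 0.68 (limma adjusted p = 0.00138) and Slc22a18 of -0.98 (limma adjusted p = 0.000384), and both stayed called. Slc36a1 had 0.87 without ΔFOXC2 replicate 4 (limma adjusted p = 0.0999) and 0.03 without wild-type replicate 3 (limma adjusted p = 0.968).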

How the results depend on the processing

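The count of 20 called members stayed within 1.5 times in all but 3 of the 21 alternatives. It was 11 with a filter at 2 FPKM (6 higher and 5 lower, from 591 genes called in all), 12 with a pseudocount of 1 (6 higher, from 568 genes) and 82 without a fold threshold (47 higher and 35 lower, from 4392 genes), where 911 genes were called as reported. Leaving out 1 library at a time gave 19 to 25 members, 10 to 14 higher and 8 to 11 lower.

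By class, leaving out 1 library gave 4 to 7 amino acid carriers, 1 to 2 sugar, 0 to 1 metal ion, 3 to 4 Slc25, 5 to 7 organic ion, 4 to 6 inorganic ion, 0 to 1 unassigned and 0 to 1 accessory genes. Without a fold threshold these were 13 amino acid, 10 sugar, 7 metal ion, 17 Slc25, 12 organic ion, 15 inorganic ion, 6 unassigned and 2 accessory genes. With a pseudocount of 1 there were 0 sugar, 1 Slc25, 3 organic ion and 3 inorganic ion carriers. With the 2 FPKM filter there were 1 Slc25, 3 organic ion and 1 inorganic ion carrier. A pseudocount of 0.01 called 1 metal ion carrier and 1 unassigned gene, and centred chromosomes 1 Slc25 carrier and 2 unassigned genes. The unadjusted p called 1 accessory gene.

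With centred chromosomes Slc35e1 reversed to 0.0902 and Slc7a6os to 0.0524, both on chromosome 8, whose median is negative. Of 1018 values of single named genes under the alternatives 969 kept their call or lack of one, 23 lost the call, 24 gained one and 2 reversed. A change of sign was counted as reversed only where either fit called the gene or the reported adjusted p was 0.05 or less.

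Same-numbered libraries did not deviate together throughout (r from -0.121 to 0.137 over the 5 numbers, with the best match at the own number for 1, 4 and 5), so the numbers were not taken to pair cultures. A replicate block also called 20 members, without Slc25a47 (adjusted p = 0.0606) and with 1 accessory gene, Slc9a3r2 (log2 -0.79, adjusted p = 0.00128).

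Reads per library are unknown, so no counting error can be given, and members near 1 FPKM (Slc25a27, Slc25a47, Slc22a18, Slc46a1 and Slc4a3) fell short of the fold threshold with a pseudocount of 1, as did Slc4a8, Slc2a6 and Slc37a2.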

Other observations

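Of 34 tested carriers that do not bear the Slc symbol, 3 rose in ΔFOXC2 cells and 1 fell, a share of 11.8% beside 8.62% of all genes, with a median log2 difference of 0.12. Oca2, the melanosomal carrier behind oculocutaneous albinism, had 8.87 ± 1.84 FPKM in ΔFOXC2 cells and 1.74 ± 0.342 FPKM in the wild type (log2 2.28, limma adjusted p = 8.29e-07; SD, n = 5 each). Pqlc3, of the PQ-loop family, had 2.79 ± 0.544 FPKM in ΔFOXC2 cells against 1.18 ± 0.317 FPKM in the wild type (log2 1.19). Nipa1, a magnesium carrier, had 7.33 ± 0.802 FPKM in ΔFOXC2 cells against 4.71 ± 0.326 FPKM in the wild type (log2 0.62). Mfsd13a was the one that fell, at 0.413 ± 0.152 FPKM in ΔFOXC2 cells against 1.56 ± 0.252 FPKM in the wild type (log2 -1.73, limma adjusted p = 4.39e-05).

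Of 21 tested genes of iron, zinc and copper handling 3 rose and 0 fell by limma (4.97% and 3.65% of all genes), with 10 at an unadjusted p of at most 0.05 (49.4% of all genes). They were ceruloplasmin (Cp), a copper-bearing oxidase of iron, at 7.28 ± 0.356 FPKM in ΔFOXC2 cells and 4.58 ± 0.173 FPKM in the wild type (log2 0.66), Hfe, which binds the transferrin receptor, at 10.2 ± 1.33 FPKM in ΔFOXC2 cells against 6.22 ± 0.665 FPKM in the wild type (log2 0.70), and the ferrireductase Steap3 on chromosome 1 at 11.6 ± 2.84 FPKM in ΔFOXC2 cells against 6.47 ± 0.395 FPKM in the wild type (log2 0.78). Of 17 tested genes for carrier partners and the sodium pump 3 rose and 0 fell by limma, with 10 at an unadjusted p of at most 0.05, beside the same shares of all genes. The pump subunit Atp1b2 was at 0.897 ± 0.104 FPKM in ΔFOXC2 cells and 0.536 ± 0.104 FPKM in the wild type (log2 0.66). The pump regulator Fxyd5 was at 4.31 ± 0.481 FPKM in ΔFOXC2 cells against 2.14 ± 0.261 FPKM in the wild type (log2 0.98), and the kinase Sgk1, which raises many carriers at the surface, at 2.17 ± 0.255 FPKM in ΔFOXC2 cells against 1.31 ± 0.166 FPKM in the wild type (log2 0.69). Among promoters, the letters TCACGTG of the MITF and TFEB site stood in 14 of 131 members (10.7%) and in 6.74% of all genes, and TGACNNNGC of the antioxidant site in 22.1% and 14.9%. Among the called members, 8 that rose and 8 that fell had a promoter; TCACGTG stood in 0 and 0 of them, and TGACNNNGC in 0 and 1.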
